A study of Mus musculus with 12 samples.

Results

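Saa3, Ptx3, Hp, Lcn2, Slpi and Tarm1 are 6 genes of innate defence, 5 coding for secreted proteins and Tarm1 for a cell surface receptor, and they were picked from 54532 annotated mouse genes because LPS raised them in bone marrow monocytes. All 6 passed the filter on low counts that left 14324 genes to test. CD11b+Ly6Chi cells, the classical monocytes, had been sorted from bone marrow and sequenced in 4 groups of 3 libraries. The first group came from mice given 300 mM succinate for 7 days, with LPS (lipopolysaccharide, a bacterial cell wall component that acts through TLR4) added to the sorted cells for 4 h. The second came from control mice, with the same LPS exposure. The remaining groups were unstimulated monocytes, of succinate mice and of control mice. The labels name no strain, age, sex or LPS dose and do not say if each replicate was its own mouse, so p-values here reflect only how far these libraries spread. Because measured LPS rises chose the 6 genes, their LPS values are given as a description, and only the succinate comparisons are tested.

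The acute-phase response is the change in plasma proteins that follows infection or tissue injury. The liver is its main source, driven by IL-6 and IL-1 through STAT3, C/EBP and NF-kB factors, and myeloid cells make some of the same proteins where microbes are met. Saa3 codes for serum amyloid A3, an apolipoprotein-like protein that in mice is made largely outside the liver. Ptx3 codes for the long pentraxin PTX3, a soluble pattern recognition molecule that binds microbes and complement proteins, and Hp for haptoglobin, which captures free haemoglobin. Lcn2 codes for lipocalin-2, which withholds iron from bacteria by binding their siderophores, and Slpi for an inhibitor of neutrophil elastase and cathepsin G. Tarm1 codes for an activating immunoglobulin-like receptor that signals through the Fc receptor gamma chain. Lipocalin-2 and haptoglobin are also stored in neutrophil granules.

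The promoters are shown because the 6 genes share an LPS rise, and C/EBP factors are known to act on acute-phase genes. RefSeq (GRCm38.p6) had a promoter window for 5 of the 6 genes, all but Hp. The 250 bases before each RefSeq start were searched on both strands. The C/EBP letters TTGCNNAA were present before 4 of 5 starts, Saa3, Ptx3, Slpi and Lcn2, against 9.56% of 32851 windows of the same length. In the sequences below, read 5′ to 3′ on the gene's strand, capitals mark that match. The Saa3 stretch is chr7:46715701-46715926 on the minus strand and stops before the annotated exon, the Ptx3 stretch is chr3:66219637-66219886 on the plus strand, and the Slpi and Tarm1 stretches are chr2:164356508-164356757 and chr7:3502625-3502874 on the minus strand.
Saa3: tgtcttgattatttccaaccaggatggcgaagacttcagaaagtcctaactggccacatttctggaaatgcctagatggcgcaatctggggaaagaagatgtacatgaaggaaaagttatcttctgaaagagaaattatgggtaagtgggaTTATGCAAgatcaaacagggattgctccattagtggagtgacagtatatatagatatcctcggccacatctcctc
Ptx3: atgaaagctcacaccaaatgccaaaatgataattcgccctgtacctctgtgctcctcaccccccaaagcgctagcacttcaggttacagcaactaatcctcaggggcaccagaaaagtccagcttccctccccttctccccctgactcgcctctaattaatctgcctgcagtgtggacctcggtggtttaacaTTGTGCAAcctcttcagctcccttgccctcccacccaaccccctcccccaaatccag
Slpi: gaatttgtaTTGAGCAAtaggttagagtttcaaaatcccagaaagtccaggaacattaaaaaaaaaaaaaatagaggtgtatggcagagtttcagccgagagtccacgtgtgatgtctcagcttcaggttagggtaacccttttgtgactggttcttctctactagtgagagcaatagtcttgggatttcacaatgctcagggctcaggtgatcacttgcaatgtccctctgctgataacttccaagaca
Tarm1: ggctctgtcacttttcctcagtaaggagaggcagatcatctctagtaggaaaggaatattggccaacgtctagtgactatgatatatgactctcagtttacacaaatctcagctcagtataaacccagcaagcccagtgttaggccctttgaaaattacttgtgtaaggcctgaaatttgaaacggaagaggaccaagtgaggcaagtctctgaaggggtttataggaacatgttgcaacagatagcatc
The match lay 99 to 92 bases before the RefSeq start of Saa3, 57 to 50 bases before that of Ptx3, 241 to 234 bases before that of Slpi and 216 to 209 bases before that of Lcn2. The Lcn2 window overlaps annotated exons of other transcripts and is not printed. Tarm1 had no such match in its window, but held the TATA box letters TATAAA or their reverse complement at 133 to 128 and at 31 to 26 bases before the start, as 12.4% of all windows did. The STAT letters TTCNNNGAA (7.02% of windows), the AP-1 letters TGANTCA (6.75%) and the NF-kB consensus (7.25%) were found before 0 of the 5 starts. These matches are letters in a window, not shown binding sites.

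The libraries held 15975882 to 18306747 counts (median 16980357). Levels are given as CPM, the counts of a gene per 1000000 counts, on libraries scaled by the trimmed mean of M values. The 8 monocyte markers, Itgam, Ly6c2, Ccr2 and Csf1r among them, were all detected, and summed to 1745 to 2766 CPM in succinate LPS libraries, 2392 to 2722 in control LPS, 2261 to 3271 in succinate unstimulated and 2530 to 3365 in control unstimulated libraries. Transcripts of 9 neutrophil markers were also present in every group, none at 0, and summed to 7492 to 7904, 7299 to 10100, 4303 to 5503 and 4730 to 7426 CPM in the same order of groups. Ly6g, the defining surface marker of neutrophils, averaged 6.46, 7.73, 4.25 and 3.87 CPM. Of 5 hepatocyte markers, Ttr and Serpina1a had 0 counts, Alb 2, Apoa1 11 and Apoa2 157 counts over the 12 libraries, and Apoa2 averaged 0.945, 1.29, 0.329 and 0.531 CPM in that order of groups. In bulk RNA, a change in the share of a cell type and a change of RNA per cell cannot be told apart. A set of 5 genes split the libraries in a way the labels do not give. They were S100a4, Rpl24, the ribosomal protein pseudogenes Rpl10-ps3 and Rpl35a-ps2, and the predicted gene Gm14303. Averaged on the log2 CPM scale they reached 3.19 to 4.03 in 5 libraries and 0.82 to 1.46 in the other 7. The high libraries were replicate 3 of control LPS, and replicates 2 and 3 of each unstimulated group. The cut, a mean of 2, was set on these genes themselves, so the split is a description. The 6 defence genes together took 0.470 to 0.623% of all counts in LPS libraries and 0.0720 to 0.0963% in unstimulated libraries.

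LPS took 3 of the genes, Saa3, Ptx3 and Tarm1, to 43.2 CPM or more in cells that had almost no transcript of them without it. Saa3 (ENSMUSG00000040026, GRCm38 chr7:46711998-46715700, minus strand) had 478, 543 and 949.6 CPM in succinate LPS replicates 1, 2 and 3, 725, 564 and 576 CPM in control LPS, 3.70, 2.45 and 3.02 CPM in succinate unstimulated and 2.31, 1.38 and 1.25 CPM in control unstimulated libraries. The summed counts were 215-fold higher with LPS than without it in succinate mice and 375-fold higher in control mice. The fitted log2 fold changes were 7.74 ± 0.31 in succinate mice and 8.54 ± 0.33 in control mice (SE, here and for all fitted values). The LPS and unstimulated libraries did not overlap, and succinate LPS replicate 3 stood above all others.

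Ptx3 (ENSMUSG00000027832, chr3:66219910-66225805, plus strand) had 50.2, 70.4 and 86.5 CPM in succinate LPS and 43.2, 46.2 and 53.5 CPM in control LPS libraries. Without LPS it was read once, in succinate replicate 1 (1 count, 0.0587 CPM), and had 0 counts in the other 5 libraries. A total of 3 counts over a group, about the 1-sided 95% limit for a count of 0, puts the LPS rise at 792-fold or more in control mice. In succinate mice the ratio of summed counts was 3562, with a 95% exact Poisson interval of 639 to 140700 that covers counting error only. The gene lies inside Veph1 on the opposite strand, which had 0 counts.

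Tarm1 (ENSMUSG00000053338, chr7:3486500-3502624, minus strand) had 58.1, 62.5 and 105.8 CPM in succinate LPS, 133, 98.4 and 103.6 CPM in control LPS, 0.352, 1.46 and 0.967 CPM in succinate unstimulated and 0.636, 0.661 and 0.686 CPM in control unstimulated libraries. LPS levels were 81.4-fold higher in succinate mice and 169.9-fold higher in control mice, over unstimulated sums of 48 and 33 counts. The fitted log2 changes were 6.34 ± 0.33 and 7.39 ± 0.35, again for succinate and then control mice. The gene's introns hold the same-strand model Gm44165, with 1067 counts against 9588 for Tarm1 and no shared exon base.

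Slpi, Hp and Lcn2 were already present without LPS. Slpi (ENSMUSG00000017002, chr2:164354070-164389095, minus strand) had 919, 998 and 1070.3 CPM in succinate LPS, 2784, 1794 and 997 CPM in control LPS, 89.5, 53.0 and 36.0 CPM in succinate unstimulated and 61.8, 38.2 and 49.5 CPM in control unstimulated libraries. With LPS it was 16.8-fold higher in succinate mice (log2 4.06 ± 0.37) and 37.5-fold higher in control mice (5.22 ± 0.39). The control LPS libraries spanned a wider range than those of any other defence gene in that group, and the lowest of them lay within the succinate LPS range. Slpi shares 1 exonic base with the same-strand miRNA gene Mir7678, which had 1017 counts against 149575.

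Hp (ENSMUSG00000031722, chr8:109575128-109579172, minus strand) had 1685, 1816 and 2268 CPM in succinate LPS, 1697, 1874 and 2075 CPM in control LPS, 263, 238 and 295 CPM in succinate unstimulated and 302, 272 and 291 CPM in control unstimulated libraries. With LPS it was 7.24-fold higher in succinate mice (log2 2.86 ± 0.14) and 6.51-fold higher in control mice (2.71 ± 0.14). Lcn2 (ENSMUSG00000026822, chr2:32384633-32388252, minus strand) had 1268, 1317 and 1658 CPM in succinate LPS, 1259, 1519 and 1505 CPM in control LPS, 511, 423 and 471 CPM in succinate unstimulated and 589, 405 and 383 CPM in control unstimulated libraries. With LPS it was 3.02-fold higher in succinate mice (log2 1.59 ± 0.17) and 3.08-fold higher in control mice (1.64 ± 0.17), the smallest rise of the 6. The summed neutrophil markers, given above, were also higher in the LPS than in the unstimulated libraries of succinate mice, without overlap, while in control mice the ranges overlapped. The sum followed the granule genes Ngp (mean 4694 CPM in succinate LPS and 2716 in succinate unstimulated libraries) and Camp (1744 and 764). The means of Retnlg (37.4 and 26.0 CPM) and Ly6g (6.46 and 4.25) were also higher with LPS. In the same libraries the means of Cxcr2 (12.7 and 26.0 CPM), Mmp8 (44.6 and 110.5) and Mmp9 (31.6 and 48.4) were lower with LPS, and those of Csf3r (289 and 289) and Ltf (872 and 872) were alike. The part of neutrophils in the Hp and Lcn2 levels was not tested.

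**Figure D1:**
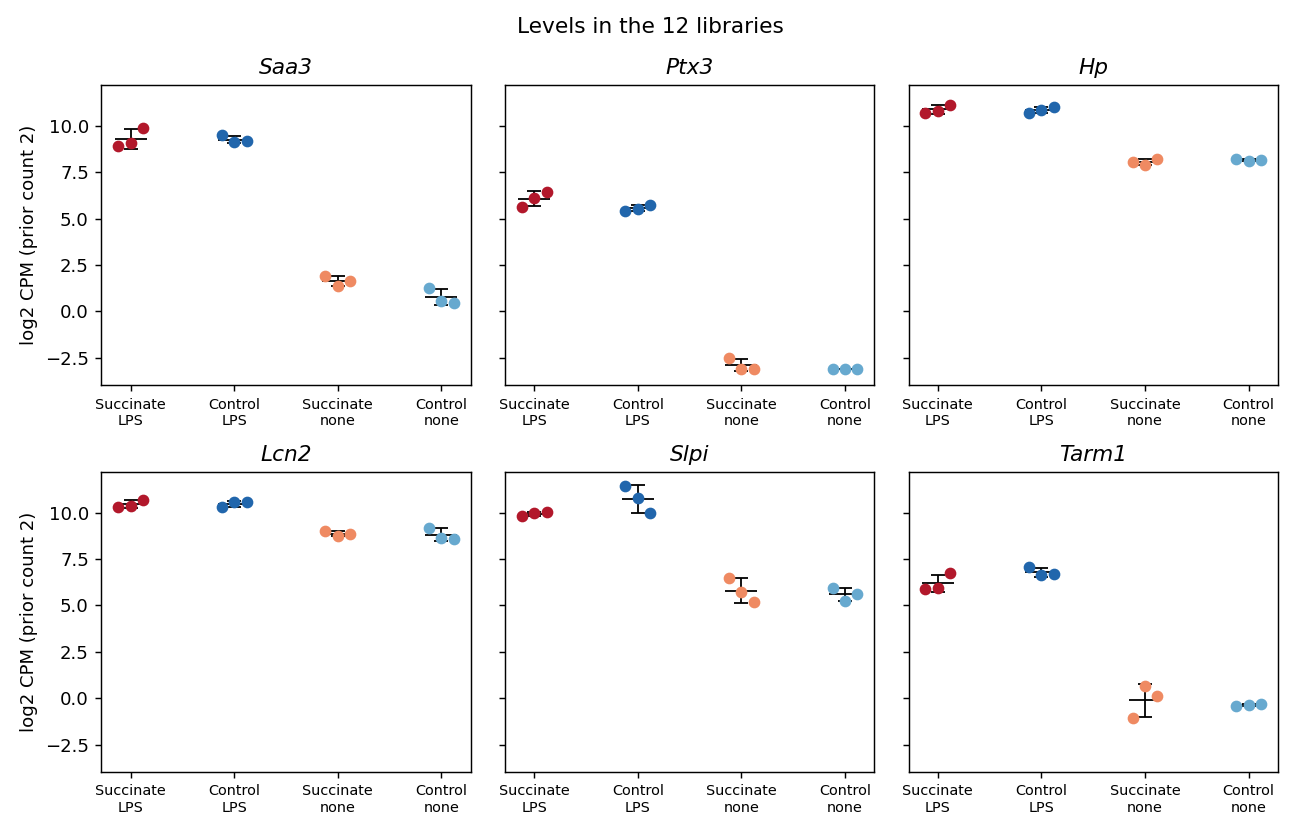
Level of each gene in each library as log2 CPM (prior count of 2), with the mean and SD of the 3 libraries of each group as bars. Saa3, Ptx3 and Tarm1 start near the bottom of the scale without LPS, Hp and Lcn2 start high, and in all 6 panels the LPS libraries lie above the unstimulated ones.

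Across all genes tested, edgeR's quasi-likelihood test called 14.1% higher and 16.2% lower with LPS in succinate mice, and 15.3% higher and 14.8% lower in control mice, at a Benjamini-Hochberg adjusted p below 0.05. The LPS libraries lay wholly above the unstimulated ones for 19.9% of genes in succinate mice and 22.3% in control mice. The 6 genes did so in both, which follows from how they were picked. By fitted change, leaving Ptx3 aside because its fitted value depends on the prior count, Saa3 ranked 10 of 14324 in succinate mice and 7 in control mice, Tarm1 37 and 23, Slpi 128 and 91, Hp 290 and 357, and Lcn2 688 and 809.

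Levels were also set per kilobase of annotated exon, merged over all transcripts of a gene. These lengths were 1606 bases for Hp, 1180 for Slpi, 2623 for Lcn2, 2606 for Saa3, 2066 for Tarm1 and 2682 for Ptx3. Which transcripts were expressed was not tested, so the order between genes holds for these lengths only. On that scale the order under LPS differed at the top between the mice. In succinate LPS libraries the mean levels were 1197 CPM per kb for Hp (range 1049 to 1412), 844 for Slpi (779 to 907), 539 for Lcn2 (484 to 632) and 252 for Saa3 (183 to 364). Tarm1 followed at 36.5 (28.1 to 51.2) and Ptx3 at 25.8 (18.7 to 32.3), and these last neighbours overlapped. In control LPS libraries Slpi was first with a mean of 1575 CPM per kb (845 to 2359) but overlapped Hp at 1172 (1057 to 1292). Lcn2 at 544 (480 to 579), Saa3 at 239 (217 to 278), Tarm1 at 54.1 (47.6 to 64.6) and Ptx3 at 17.8 (16.1 to 19.96) followed without overlap. Without LPS, Lcn2 and Hp led with overlapping levels in both kinds of mice, at 179 and 165 CPM per kb in succinate and 175 and 179.6 CPM per kb in control libraries.

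Whether succinate given to the mice altered the LPS-stimulated level was tested between LPS libraries, which had also entered the choice of the genes. Slpi averaged 996 ± 75.5 CPM in succinate LPS and 1858 ± 895 CPM in control LPS libraries (SD, n = 3 each, here and for all CPM means), Tarm1 75.5 ± 26.4 and 112 ± 18.9 CPM, and Ptx3 69.0 ± 18.2 and 47.7 ± 5.30 CPM. None of the 6 genes passed the threshold over all genes in edgeR's quasi-likelihood test, where 9 of 14324 genes (0.0628%) did, all of them lower in succinate mice. DESeq2 and limma-voom also called 0 of the 6, and 3 of the 6 had an unadjusted p below 0.05, as did 1680 of all 14324 genes (11.7%). The ranges of the succinate and control LPS libraries overlapped for all 6, whereas they were wholly higher for 6.95% and wholly lower for 10.2% of all genes. The median log2 fold change of the 6 was 0.01, beside −0.01 over all genes tested.

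Slpi, the protease inhibitor, had the largest of the 6 fitted differences, a log2 fold change of −0.90 ± 0.33 (95% interval −1.60 to −0.20) and an adjusted p of 0.287 by edgeR's quasi-likelihood test. Succinate LPS libraries lay at 49.5, 53.7 and 57.6% of the control LPS mean, while control LPS libraries lay at 149.8, 96.5 and 53.7%. The value rested on single control libraries. It was −0.50 without control LPS replicate 1, the highest (adjusted p = 0.823), and −1.20 without control LPS replicate 3, the lowest (adjusted p = 0.0796). Control LPS replicate 3 was also the only LPS library on the high side of the 5-gene split. With that library property as a covariate, edgeR's fit gave −1.11 for Slpi with an adjusted p of 0.0289, while 190 genes were called in all. Over all settings run the adjusted p for Slpi was 8.6e-08 to 0.823. The lowest came from edgeR's fit without a filter on low counts, which called 694 genes in all.

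Tarm1, the surface receptor, had a log2 fold change of −0.57 ± 0.23 (95% interval −1.06 to −0.08) and an adjusted p of 0.349 by edgeR's test. Succinate LPS replicates 1 and 2 lay at 52.0 and 55.9% of the control LPS mean, and replicate 3 at 94.6%, between the control LPS libraries at 119, 88.0 and 92.6%. Without succinate LPS replicate 3 the value was −0.89 (adjusted p = 0.0514, edgeR), and without replicate 1 it was −0.41 (adjusted p = 0.828). Over all settings run the adjusted p was 0.00843 to 0.828, the lowest from edgeR's fit without a filter on low counts.

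Ptx3, the pentraxin, was on the other side, with a log2 fold change of 0.53 ± 0.19 (95% interval 0.13 to 0.94) and an adjusted p of 0.278 by edgeR's test. Succinate LPS libraries lay at 105, 148 and 181.5% of the control LPS mean and control LPS libraries at 90.7, 97.0 and 112%. The lowest succinate library thus fell within the control range. The value was 0.34 without succinate LPS replicate 3 and 0.72 without replicate 1. The adjusted p over all settings run was 0.025 to 0.729, the lowest from edgeR's fit without a filter on low counts.

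For Saa3, Hp and Lcn2 the fitted differences were close to 0, with intervals that set how large a difference these libraries leave possible. Saa3 averaged 657 ± 256 CPM in succinate LPS and 622 ± 89.6 CPM in control LPS libraries, a log2 fold change of 0.08 ± 0.22 (95% interval −0.39 to 0.55; adjusted p = 0.927, edgeR). It became −0.29 without succinate LPS replicate 3, so that its sign rested on 1 library. Hp averaged 1923 ± 306 and 1882 ± 189 CPM, a log2 fold change of 0.03 ± 0.13 (−0.25 to 0.31; adjusted p = 0.955, edgeR). Lcn2 averaged 1415 ± 212 and 1427 ± 146 CPM, a log2 fold change of −0.01 ± 0.16 (−0.36 to 0.33; adjusted p = 0.983, edgeR). Succinate LPS replicate 3 had the highest level of its group for all 6 genes.

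**Figure D2:**
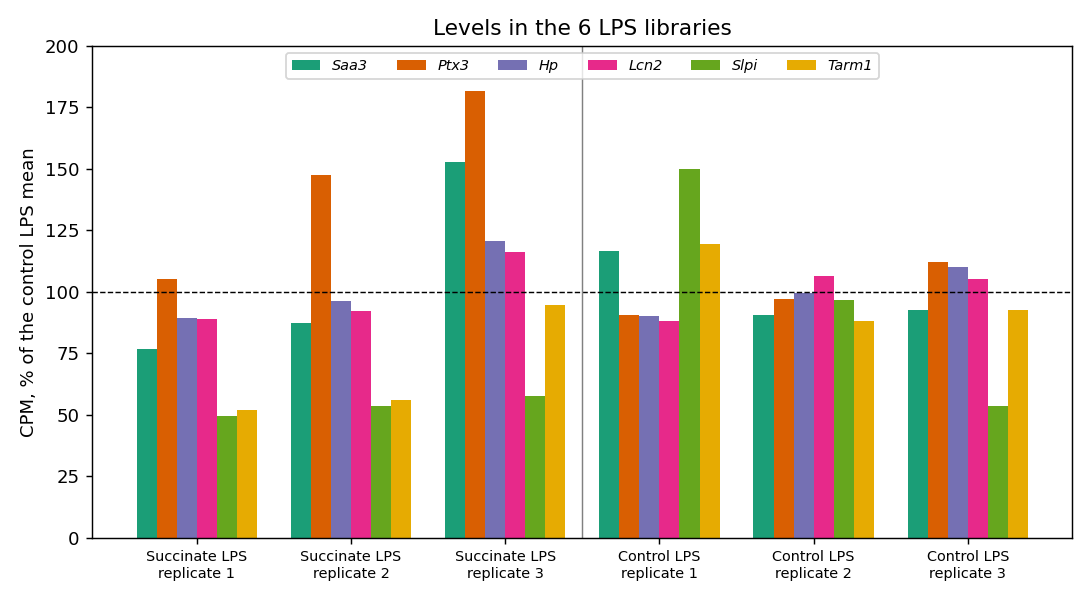
CPM of each gene in each LPS library, as a percentage of the mean of the 3 control LPS libraries (dashed line at 100%). Slpi lies between 49.5 and 57.6% in the succinate LPS libraries and between 53.7 and 149.8% in the control LPS libraries, and the bars of succinate LPS replicate 3 are the highest of its group for all 6 genes.

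Without LPS, the question was whether succinate alone changed the resting level. Saa3 averaged 3.06 ± 0.626 CPM in succinate unstimulated and 1.65 ± 0.581 CPM in control unstimulated libraries, from 42 to 63 and 20 to 40 counts. Its log2 fold change was 0.88 ± 0.35 (95% interval 0.13 to 1.63), with an adjusted p of 0.958 by edgeR's test. All 3 succinate libraries lay above all 3 control libraries, as they did for 3.65% of all genes. At these counts the level in both groups was below 4 CPM. With the replicate number as a block the Saa3 value was 0.91 (adjusted p = 0.432, edgeR) within the unstimulated libraries alone.

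Hp averaged 265 ± 28.9 CPM in succinate unstimulated and 288 ± 15.3 CPM in control unstimulated libraries, a log2 fold change of −0.12 ± 0.13 (95% interval −0.40 to 0.16). Lcn2 averaged 469 ± 44.1 and 459 ± 113 CPM, a log2 fold change of 0.03 ± 0.16 (−0.32 to 0.38). Slpi averaged 59.5 ± 27.3 and 49.9 ± 11.8 CPM, a log2 fold change of 0.26 ± 0.33 (−0.46 to 0.97). Tarm1 averaged 0.926 ± 0.554 and 0.661 ± 0.0250 CPM, a log2 fold change of 0.48 ± 0.50 (−0.59 to 1.56), from 6 to 25 counts in each succinate library and 11 in each control library. The ranges of these 4 genes overlapped, and for Ptx3, with 1 count and 0 counts, no fold is given. None of the 5 comparable genes passed the threshold, and over all genes edgeR's test called 0 (0%), with 535 at an unadjusted p below 0.05, while DESeq2 called 1 and limma-voom 0. With the replicate block and the unstimulated libraries alone, 6 genes were called, none of them one of the 6 defence genes.

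The difference between the LPS effects, succinate mice minus control mice, uses the libraries on which the genes were picked. It was −1.16 ± 0.47 on the log2 scale for Slpi (95% interval −2.16 to −0.16), −1.05 ± 0.55 for Tarm1 (−2.24 to 0.13) and −0.80 ± 0.42 for Saa3 (−1.69 to 0.09). It was 0.15 ± 0.19 for Hp (−0.24 to 0.55) and −0.04 ± 0.23 for Lcn2 (−0.53 to 0.45). The fitted differences were thus below 0 for 4 of the 5 comparable genes, beside a median of −0.03 over all genes tested. The sign for Lcn2 changed in 8 of 20 refits. The adjusted p was 0.9999 for each of the 5 by edgeR's test, and 1 of them, Slpi, had an unadjusted p below 0.05. Over all genes edgeR's test called 0 (0%), with 560 at an unadjusted p below 0.05, while DESeq2 called 3 and limma-voom 0. For Slpi the value was −0.75 without control LPS replicate 1 and −0.74 without succinate unstimulated replicate 1.

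**Figure D3:**
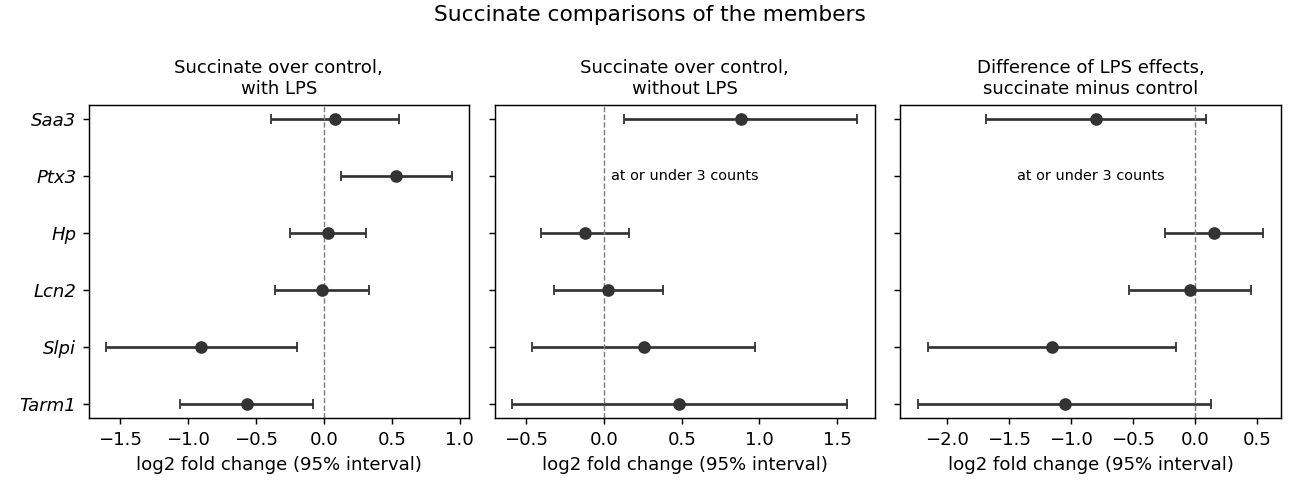
Log2 fold change of each gene with its 95% interval for succinate over control with LPS, succinate over control without LPS, and the difference of the LPS effects (succinate minus control). Slpi and Tarm1 lie below 0 and Ptx3 above 0 with LPS, Saa3 lies above 0 without LPS, and no gene passed the adjusted threshold; Ptx3 is left out where a group had 3 counts or fewer.

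The other acute-phase and soluble recognition genes gave a mixed picture. Of 31 listed, 12 passed the filter on low counts, and liver proteins such as Crp and the fibrinogen chains did not. With LPS, 9 of the 12 rose and 1 fell in succinate mice, and the same counts held in control mice. Over all genes 14.1% rose and 16.2% fell in succinate mice, and 15.3% and 14.8% in control mice. The medians of the 12 were 1.46 and 1.41 on the log2 scale, beside −0.02 and −0.00 over all genes. In control mice the serine protease inhibitor Serpina3f had 7.11 ± 4.94 CPM with LPS and 0.138 ± 0.124 CPM without (log2 5.59 ± 0.64, adjusted p = 8.18e-06, edgeR). Its relative Serpina3g rose by 3.83 ± 0.44, and Cp, which codes for the copper carrier ceruloplasmin, by 3.26 ± 0.49. The scavenger receptor Colec12 fell by 3.62 ± 0.81 on the log2 scale. It had 2.14 ± 0.970 CPM in control unstimulated and 0.165 ± 0.186 CPM in control LPS libraries, from 107 and 8 counts. Between succinate LPS and control LPS libraries 0 of the 12 were called. Of the 12, 1 had an unadjusted p below 0.05, beside 11.7% of all genes. It was Serpina3g, with 28.2 ± 14.8 and 15.9 ± 6.51 CPM (log2 0.83 ± 0.35, adjusted p = 0.366, edgeR). Without succinate LPS replicate 3 the Serpina3g value was 0.32 (adjusted p = 0.718, edgeR). Serpina3 genes are near copies, and reads can be split between them.

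Of 24 other antimicrobial proteins, proteases and protease inhibitors, 20 were tested. LPS raised 15 and lowered 2 in succinate mice, beside 14.1% and 16.2% of all genes. It raised 12 and lowered 2 in control mice, beside 15.3% and 14.8%. Serpinb2, an inhibitor of plasminogen activators, had 164 ± 21.2 CPM in control LPS and 1.75 ± 0.798 CPM in control unstimulated libraries (log2 6.54 ± 0.27, adjusted p = 4.95e-10, edgeR). The chitinase-like gene Chil1 rose by 2.27 ± 0.16 on the log2 scale. Between succinate LPS and control LPS libraries 0 of the 20 were called. Of the 20, 2 had an unadjusted p below 0.05, beside 11.7% of all genes. Prtn3, the granule protease proteinase 3, was among them, with 1139 ± 166 CPM in succinate LPS and 815 ± 256 CPM in control LPS libraries (log2 0.48 ± 0.20). Prtn3 is also a progenitor marker, and the 6 progenitor markers summed to 3714 to 4467 CPM in succinate LPS and 2078 to 4687 CPM in control LPS libraries; their part was not tested.

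Of 14 activating and paired receptors related to Tarm1, or that share its signalling chain, 13 were tested. LPS raised 9 and lowered 2 in succinate mice, beside 14.1% and 16.2% of all genes. It raised 10 and lowered 2 in control mice, beside 15.3% and 14.8%. In control mice Clec4e, the receptor Mincle, rose by 2.43 ± 0.22 on the log2 scale, Pirb, an inhibitory receptor, by 1.93 ± 0.21, and Trem1, an amplifier of inflammation, by 1.89 ± 0.19. Between succinate LPS and control LPS libraries 0 of the 13 were called by edgeR and 6 had an unadjusted p below 0.05, beside 11.7% of all genes, with a median log2 fold change of −0.27, beside −0.01 over all genes. Clec4e had 2592 ± 536 and 3908 ± 948 CPM (log2 −0.59 ± 0.21, adjusted p = 0.277) and Clec4d 848 ± 115 and 1253 ± 333 CPM (−0.56 ± 0.20, adjusted p = 0.278) by edgeR's test. Lilr4b, of a family whose near copies can share reads, had 1177 ± 93.9 and 1804 ± 688 CPM (−0.62 ± 0.23). With the library property as a covariate edgeR's adjusted p was 0.0728 for Clec4e, 0.0449 for Clec4d and 0.0373 for Lilr4b. DESeq2 gave 0.0973, 0.104 and 0.113, and limma-voom 0.2603, 0.281 and 0.3497, for the same genes in that order. Lair1, an inhibitory collagen receptor, had 55.9 ± 3.76 and 43.6 ± 5.91 CPM (0.36 ± 0.14).

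Among 14 inducers of the acute-phase response, all tested, LPS raised 6 and lowered 3 in succinate mice, beside 14.1% and 16.2% of all genes. It raised 6 and lowered 2 in control mice, beside 15.3% and 14.8%. In control mice Il6 rose by 7.23 ± 0.55, Il1b by 6.64 ± 0.51 and Tnf by 3.15 ± 0.19 on the log2 scale. Il6ra, the IL-6 receptor, fell by 1.93. Il6 had 9 counts over the control unstimulated libraries and 1339 over the control LPS libraries. Between succinate LPS and control LPS libraries edgeR called 0 of the 14 and 5 had an unadjusted p below 0.05, beside 11.7% of all genes. Cebpb codes for a C/EBP factor of the acute-phase response. It had 614 ± 79.6 CPM in succinate LPS and 905 ± 172 CPM in control LPS libraries (log2 −0.56 ± 0.14). Its adjusted p was 0.118 by edgeR, 0.0154 by DESeq2 and 0.108 by limma-voom. By edgeR's test it was 0.0949 with the library property as a covariate. Without control LPS replicate 3 it was 0.217, and without succinate LPS replicate 3 it was 0.174, also by edgeR's test. Of these values only that of DESeq2 passed the threshold. Il6ra had 66.4 ± 7.08 and 51.2 ± 9.17 CPM (0.37 ± 0.13, adjusted p = 0.263, edgeR).

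Of 9 receptors that bind or sense the secreted proteins, 7 were tested. LPS raised 1 and lowered 3 in each kind of mouse, beside 14.1 to 15.3% and 14.8 to 16.2% of all genes. In control mice Fpr2, a formyl peptide receptor that binds serum amyloid A, rose by 3.86 ± 0.27, and the scavenger receptor gene Cd36 fell by 3.26 on the log2 scale. P2rx7, which codes for an ATP-gated ion channel, also fell with LPS in control mice, by 1.23 ± 0.19. Between succinate LPS and control LPS libraries edgeR's test called 0 of the 7, and 2 had an unadjusted p below 0.05, beside 11.7% of all genes. P2rx7 had 83.3 ± 13.3 CPM in succinate LPS and 170 ± 43.6 CPM in control LPS libraries (log2 −1.03 ± 0.19). Its adjusted p was 0.0547 by edgeR's quasi-likelihood test, 5.80e-05 by DESeq2 and 0.0458 by limma-voom. It was 0.00838 with the library property as a covariate, 0.00903 without control LPS replicate 3 and 0.0383 without succinate LPS replicate 3, by edgeR's test.

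**Figure D4:**
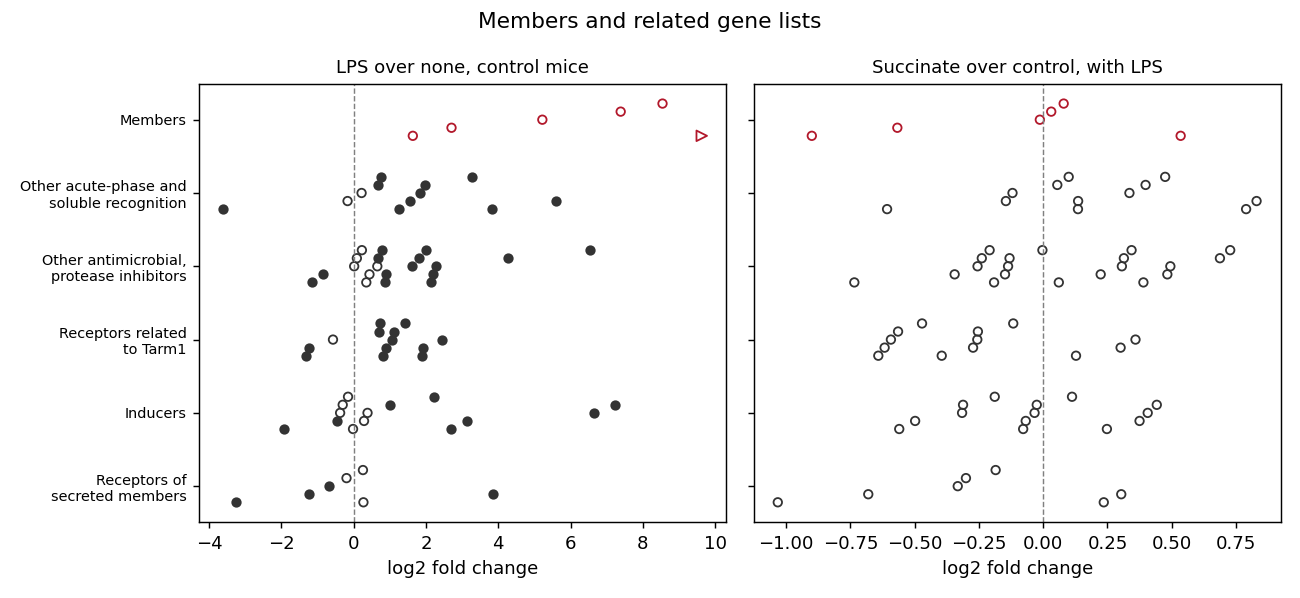
Log2 fold changes of the 6 defence genes (red) and of 5 related gene lists (grey), for LPS over none in control mice and for succinate over control with LPS; filled points passed the adjusted threshold, and the red points carry no test in the first panel. The arrowhead marks Ptx3 at its lower bound of 9.63, and no point is filled in the second panel.

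The genes most like each of the 6 over the 12 libraries, by Pearson correlation of log2 CPM among 8290 genes that reached 10 CPM in a group, had correlations of 0.989 to 0.998, which mostly carry the split between 6 LPS and 6 unstimulated libraries. For Saa3 they were Ptx3, Ikbke and Pik3r6, for Ptx3 Cxcl10, Pilra and Ikbke, and for Tarm1 Ikbke, Ntng2 and Pik3r6. For Hp they were Rnf145, Ptx3 and Rnd1, for Slpi Piwil2, Tma16 and Cxcl3, and for Lcn2 Cd33, Hnmt and Cebpd. Among the 6 genes themselves the 15 pairs correlated at 0.959 to 0.995 over all 12 libraries. Over the 6 LPS libraries alone they ranged from −0.60, for Ptx3 with Slpi, to 0.93, for Hp with Lcn2, and 4 of the 15 were negative.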

How the data were processed

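Raw gene counts of 12 libraries were used as the authors deposited them, 1 file per library. Reads had been trimmed with Trim Galore and the build was mm10, as the submitters' processing notes list. No source used here names the aligner, the counting tool, its strand setting or how reads with several matches were treated. GENCODE M21 (GRCm38) annotated 54409 of the 54532 gene identifiers.

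Genes were filtered with filterByExpr in edgeR 4.0.16 (R 4.3.3), which kept 14324 genes and at least 99.87% of each library's counts, scaled by the trimmed mean of M values, and tested with edgeR's quasi-likelihood test over all 12 libraries with 1 mean per group. P-values were Benjamini-Hochberg adjusted over all genes tested and called below 0.05. Alternatives were other filters and scalings, DESeq2 1.42.0, limma-voom (limma 3.58.1), a replicate block, the library property as a covariate, the compared groups alone, and each library left out. Chi-square per degree of freedom between libraries of a group was 6.42 to 38.72, so no library was a repeat of another in its group. Libraries of different groups were not compared in this way, and the value does not show whether libraries shared a mouse.

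The genes, the lists and the motifs were chosen with earlier results of these data known. From each list the text names genes among the 4 with the smallest p for succinate over control with LPS and the 3 with the largest LPS change in control mice, and for each of the 6 genes the 3 most correlated ones; 1 gene that this rule picks is not reported here. Same-numbered unstimulated libraries deviated together (correlations of 0.12 to 0.26 over genes, −0.21 to 0.02 for different numbers), so the blocked values are given for that comparison. In both unstimulated groups replicate 1 was low and replicates 2 and 3 high in the 5-gene split. The block and that split therefore cannot be fully told apart. Same-number correlations were −0.03 to 0.09 between the LPS groups. Between LPS and unstimulated libraries they were −0.13 to 0.21 in control and 0.01 to 0.38 in succinate mice. These ranges overlapped those of different numbers, and the numbers were not taken as pairs.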

Additional observations from a re-analysis of the deposited data

How the results depend on the processing

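Ptx3 is left out where a group had 3 counts or fewer, and the interaction could not be fitted with the compared groups alone. The LPS values of the other 5 genes, on which the genes were picked, are a description and no check of stability. Of the refits of the 16 succinate and interaction values, 313 kept both, 6 crossed the threshold and 23 changed sign.

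Without a filter on low counts (28563 genes) the values with LPS of Ptx3 (0.55, adjusted p = 0.025), Slpi (−0.88, 8.6e-08) and Tarm1 (−0.56, 0.00843) passed the threshold, as did Saa3 without LPS (0.85, 0.0308) and the Slpi interaction (−1.11, 1.98e-05), all by edgeR's quasi-likelihood test. With the library property as a covariate Slpi passed at −1.11 and Saa3 with LPS became −0.0337. Lcn2 with LPS changed sign under library size alone (0.11), with the compared groups alone (0.0119) and with those and the replicate block (0.0085), and its interaction under library size alone (0.0486). Library size alone put the median of all genes with LPS at 0.11, against −0.01. The causes were not tested.

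Leaving out each library gave, with LPS, −0.29 to 0.26 for Saa3, −0.11 to 0.12 for Hp and −0.144 to 0.0602 for Lcn2. Without LPS it gave −0.0908 to 0.248 for Lcn2 and −0.16 to 0.52 for Slpi, and −0.261 to 0.0752 for the Lcn2 interaction.

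The 9 genes called with LPS became 694 without a filter (121 higher, 573 lower), 30 under a stricter filter (1 CPM in 6 libraries), 0 under library size alone, 346 with DESeq2, 34 with limma-voom, 77 with the replicate block, 190 with the covariate, 0 with the compared groups alone and 0 with those and the block, and 0 to 197 with a library left out: 197 and 79 without replicate 3 of succinate LPS or control LPS, 25 and 27 without succinate unstimulated replicate 1 or 3, 3 without control unstimulated replicate 1 or 2, and 0 without control unstimulated replicate 3 or replicate 1 or 2 of either LPS group. The count of 0 without LPS became 72 without a filter, 1 with DESeq2 and 6 with the compared groups and the replicate block, and that of the interaction 71 without a filter and 3 with DESeq2. The replicate block changed no call of the 6 genes, and its fit on the compared groups alone was chosen after seeing the data. Leaving out a library gave 0 in both.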
